A study of Mus musculus with 16 samples.

Results

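Matrix metalloproteases, ADAMs and TIMPs were followed in the muscle and muscle cell arrays through 9 genes: the inhibitors Timp1, Timp2 and Timp3, the secreted proteases Mmp2, Mmp3 and Mmp9, the membrane-bound protease Mmp14, and the transmembrane proteins Adam8 and Adam12. They were chosen by gene symbol, with earlier results of these data known. They are 9 of 18194 genes with a named probe set, and are covered by 22 of the 45101 probe sets of the array. The study asked how muscle gene expression changes when Galgt2 (B4galnt2), a glycosyltransferase of the neuromuscular junction, is overexpressed in normal and in dystrophin-deficient muscle. A first set of 8 arrays held gastrocnemius muscle of male mice aged 2 months in 4 groups of 2 arrays. These were Tgmdx (Galgt2 transgenic and dystrophin-deficient, C57BL/10J x C57BL/6J), Tg (Galgt2 transgenic, C57BL/6J), mdx (dystrophin-deficient, C57BL/10J) and WT (wild type, C57BL/6J). A second set of 4 arrays held mdx gastrocnemius of male C57BL/10J mice of the same age: 2 arrays of muscle treated with an adeno-associated virus carrying Galgt2 (AAV) and 2 arrays of contralateral muscle mock-treated with saline (PBS). Every muscle in the second set therefore lacks dystrophin. The third set of 4 arrays held the mouse myoblast line C2C12 and a C2C12 line stably transfected with Galgt2, called C2CT here, each as myoblasts and as myotubes with 1 array per condition. The mdx and WT mice differ in C57 substrain as well as in dystrophin, and these cannot be told apart. The Tgmdx mice are of mixed substrain, so background also differs in Tgmdx against mdx, Tg and WT and enters the interaction, and cannot be told apart there either. The promoter that drives the transgene or the virus, and whether the C2CT line is 1 clone, are not given in the sources used here. The labels do not say whether the 2 arrays of a group come from separate mice, so p-values reflect nothing more than the spread among these arrays, which may be technical.

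Matrix metalloproteases (MMPs) are zinc proteases that are made as inactive precursors and, once activated, cut collagens, laminins and other parts of the extracellular matrix. ADAMs are membrane-anchored relatives with a disintegrin domain, many of which release growth factors, cytokines and receptors from the cell surface. TIMPs are small secreted proteins that block the active site of these enzymes, and Timp2 also helps Mmp14 to activate the Mmp2 precursor. In dystrophic muscle, fibres that lack dystrophin break down and are rebuilt, and invading leukocytes, fibroblasts, myoblasts and fibres are all known sources of these enzymes and inhibitors. In whole muscle, fewer cells of a type and less RNA per cell cannot be told apart.

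Levels below are log2 of the deposited array intensity, which is positive and was taken as linear, and a difference of 1 on this scale is a 2-fold difference. Array medians were 57.69 to 63.95 in the first set, 25.35 to 25.71 in the second and 57.18 to 60.37 in the third, on the linear scale, and no level is set across sets. A gene was called changed at an adjusted p under 0.05 in limma, fitted once to the 12 muscle arrays, with Benjamini-Hochberg adjustment across the 18194 genes. The engineered gene B4galnt2 was at 13.28 and 13.34 in Tgmdx, 13.17 and 13.32 in Tg, 3.86 and 7.78 in mdx, and 4.61 and 4.94 in WT muscle. It was at 10.54 and 10.56 in AAV against 5.27 and 4.26 in PBS muscle. The groups carrying Galgt2 stood above those without it, but the second mdx array stood well above the first. Dmd, the dystrophin gene, was at 9.86 and 9.87 in Tgmdx, 11.16 and 10.98 in Tg, 8.52 and 8.13 in mdx, and 11.14 and 11.16 in WT muscle. The Tgmdx arrays lay between mdx and WT, 1.54 ± 0.20 above mdx (SE, limma adjusted p = 0.00305). They were 1.29 below WT (limma adjusted p = 0.00435), so the label of dystrophin deficiency is in doubt for these arrays as far as Dmd transcript can tell, and Tgmdx below is the name the labels give them. The members' results that use the mdx arrays are given with and without the second one. The second Tgmdx array had a log2 ratio of 3' to 5' Gapdh probe sets of 1.23, against 0.182 to 0.48 on the other 7 arrays of the set. All 8 adult fibre markers, such as Acta1 and Ckm, lay above the array median on every muscle array.

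Dystrophin-deficient muscle held more transcript of 6 of the 9 genes than wild-type muscle. Timp1 was 15-fold higher, Adam8 7.97-fold, Adam12 5.34-fold, Mmp3 4.63-fold, Mmp14 4.32-fold and Mmp2 1.93-fold, and no member was called lower. Over all genes, 3.75% were called higher and 1.69% lower in mdx against WT muscle. The median change of the 9 genes was 2.21, beside 0.01 over all genes. Because the 9 genes were chosen with earlier results of these data known, such shares and medians describe them and carry no test of the family.

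**Figure D1:**
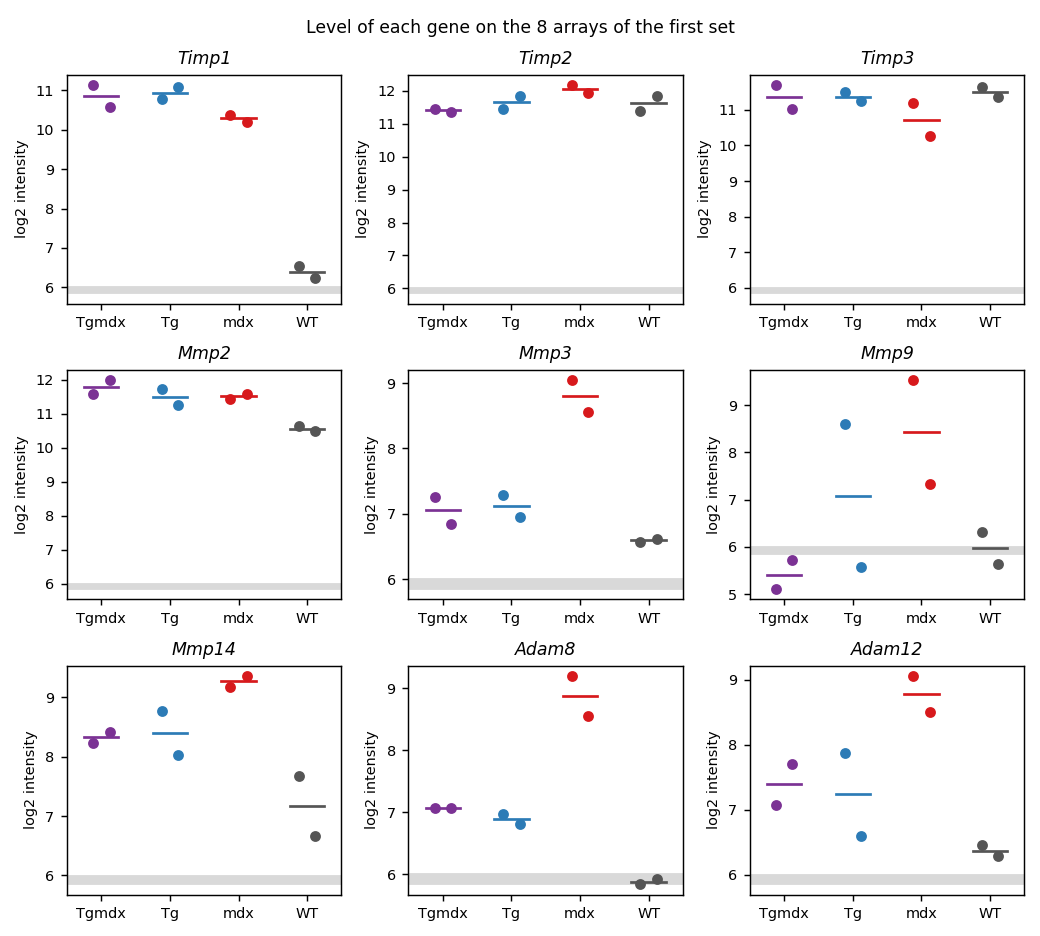
Log2 intensity of each gene on the 8 gastrocnemius arrays of the first set, one point per array with 2 arrays per group, grouped as Tgmdx, Tg, mdx and WT; the line marks each group's mean and the grey band the range of array medians. Timp1 sits near 10 to 11 in the 3 altered groups and near 6 in WT muscle, whereas Mmp3, Adam8 and Adam12 are highest in mdx muscle.

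Among the inhibitors, Timp1, which blocks most soluble MMPs and is induced in many injured tissues, had levels of 10.38 and 10.20 in mdx and 6.55 and 6.23 in WT muscle. The difference was 3.90 ± 0.48 (SE, limma adjusted p = 0.00326), with a 95% interval of 2.84 to 4.96. Both mdx arrays lay far above both WT arrays. Timp2 had 12.18 and 11.93 in mdx against 11.40 and 11.85 in WT muscle, a difference of 0.43 ± 0.26 that was not called (limma adjusted p = 0.411). Timp3, the inhibitor that stays bound to the matrix and also acts on ADAMs, had 11.19 and 10.26 in mdx against 11.63 and 11.35 in WT muscle. Its difference of -0.76 ± 0.31 was not called either (limma adjusted p = 0.2), and its 2 mdx arrays differed by more than this. The Timp3 difference was -0.30 without the second mdx array (limma adjusted p = 0.678) and -1.22, which was called, without the first (0.0387).

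Of the secreted proteases, Mmp3, stromelysin 1, which cuts proteoglycans and laminin and activates other MMP precursors, had 9.04 and 8.56 in mdx against 6.57 and 6.61 in WT muscle. Its difference was 2.21 ± 0.34 (SE, limma adjusted p = 0.00752). Mmp2, gelatinase A, which cuts denatured and basement-membrane collagen, had 11.44 and 11.58 in mdx against 10.64 and 10.49 in WT muscle, a difference of 0.95 ± 0.22 (limma adjusted p = 0.0362). In both genes the 2 arrays of a group lay closer together than the groups did. Mmp9, gelatinase B, which neutrophils and macrophages carry, had 9.52 and 7.32 in mdx against 6.32 and 5.64 in WT muscle. The groups did not overlap, but the mdx arrays were 2.20 apart and the difference of 2.44 ± 0.95 was not called (limma adjusted p = 0.174).

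Mmp14, also called MT1-MMP, which cuts collagen at the cell surface, had 9.18 and 9.36 in mdx against 7.67 and 6.66 in WT muscle, a difference of 2.11 ± 0.33 (SE, limma adjusted p = 0.00801). Adam8, an ADAM of myeloid leukocytes, had 9.20 and 8.55 in mdx against 5.84 and 5.92 in WT muscle. Its WT levels lay at the array median, and the difference was 2.99 ± 0.58 (limma adjusted p = 0.017). Adam12, which is known from fusing myoblasts and regenerating muscle, had 9.06 and 8.50 in mdx against 6.45 and 6.28 in WT muscle, a difference of 2.42 ± 0.50 (limma adjusted p = 0.0233). In all 3 genes both mdx arrays lay above both WT arrays. Counted this way, 8 of the 9 genes were higher in both mdx arrays than in both WT arrays and 1, Timp3, was lower, where 23.7% of all genes were higher and 21.6% lower.

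Timp1 was called in mdx against WT muscle whichever of the 12 arrays was left out, at 3.74 to 4.07. Without the second mdx array, 4 of the 6 calls were kept: Timp1 at 3.99, Mmp3 at 2.45, Mmp14 at 2.02 and Adam8 at 3.32, while Adam12 at 2.70 (limma adjusted p = 0.0574) and Mmp2 at 0.88 (0.135) were not called. Timp2 at 0.56 and Mmp9 at 3.54 were not called without it either (limma adjusted p = 0.427 and 0.119). Without the first mdx array, Timp1, Mmp3 and Mmp14 were called higher. The Mmp2 call was also lost in a fit to the first set alone, with arrays shifted to one median, and without either AAV array. Fewer calls were left when a WT array was dropped: 2 members, Timp1 and Mmp14, were called without the first WT array, and 1, Timp1, without the second. Over all genes the calls went down likewise, to 186 (1.02%) and 132 (0.726%), beside 990 with all arrays.

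Macrophage markers moved with these genes. The summed intensity of 9 macrophage markers was 22300 and 18000 in mdx against 5980 and 5700 in WT muscle, none was listed at 0, and 5 of 9 were called higher, among them Cd68 by 4.21 ± 0.56 and Adgre1 by 2.67 ± 0.28 (SE, limma adjusted p = 0.0043 and 0.00233). The 9 neutrophil markers summed to 1420 and 874 in mdx against 279 and 448 in WT muscle, with 1 of 9 called higher (0 without the second mdx array). Markers of new fibres moved too, with 6 of 7 called higher (5 without the second mdx array) and a mean log2 level of 10.53 and 10.53 in mdx against 7.39 and 7.28 in WT muscle. The summed intensity of 9 fibroblast markers ran from 33000 to 38700 over the 8 arrays, with 0 of 9 called in any comparison. The part of these cells in the protease and inhibitor levels was not tested.

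The promoters of 4 of the genes called higher in mdx muscle are shown so that the letters of genes that rose in the same arrays can be compared. They are the 250 bases before the annotated gene start from RefSeq on GRCm38.p6, which had an entry for 6 of the 9 genes, printed 5' to 3' on the gene's strand. Capitals mark motifs searched on both strands: AP-1 (TGANTCA), ETS (AGGAAG), the GC box (GGGCGG) and the TATA box (TATAAA), which share no letters in these windows. Timp1 lies at chrX:20869916-20870165 on the plus strand, Mmp3 at chr9:7445572-7445821 on the plus strand, Mmp14 at chr14:54431348-54431597 on the plus strand and Adam8 at chr7:139992563-139992812 on the minus strand.
Timp1: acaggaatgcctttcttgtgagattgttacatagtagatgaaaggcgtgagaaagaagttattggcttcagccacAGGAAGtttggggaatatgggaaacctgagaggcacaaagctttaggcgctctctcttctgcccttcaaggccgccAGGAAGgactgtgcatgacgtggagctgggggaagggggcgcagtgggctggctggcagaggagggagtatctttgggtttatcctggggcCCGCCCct
Mmp3: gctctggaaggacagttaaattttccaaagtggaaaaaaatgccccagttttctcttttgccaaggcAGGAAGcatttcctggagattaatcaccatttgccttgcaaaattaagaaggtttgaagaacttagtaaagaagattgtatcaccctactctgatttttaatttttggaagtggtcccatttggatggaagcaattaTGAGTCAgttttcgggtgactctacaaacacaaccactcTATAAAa
Mmp14: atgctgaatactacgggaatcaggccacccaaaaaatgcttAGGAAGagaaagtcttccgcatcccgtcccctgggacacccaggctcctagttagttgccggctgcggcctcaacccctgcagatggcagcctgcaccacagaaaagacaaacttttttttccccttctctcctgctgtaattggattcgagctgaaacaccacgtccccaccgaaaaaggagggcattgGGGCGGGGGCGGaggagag
Adam8: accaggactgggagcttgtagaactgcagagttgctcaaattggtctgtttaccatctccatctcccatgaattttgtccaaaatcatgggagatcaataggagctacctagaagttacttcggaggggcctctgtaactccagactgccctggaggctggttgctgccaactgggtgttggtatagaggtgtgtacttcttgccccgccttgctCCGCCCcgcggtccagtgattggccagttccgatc
Mmp3 was the 1 of 6 members with the AP-1 letters, here as TGAGTCA from 46 to 40 bases before the start, where 6.75% of 32851 RefSeq promoters of this length hold them. It was also the 1 of 6 with TATAAA, from 7 to 2 bases before the start, against 12.4% of promoters. The ETS letters were in 4 of 6 members (29.5% of promoters) and the GC box letters in 5 of 6 (32.7%), with 2 adjoining copies in Mmp14. A match of letters is a description and shows no binding or working TATA box. Positions count from the annotated start, which was not checked against the start of transcription.

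The Galgt2 transgene in otherwise normal muscle went with a single called change among the 9 genes. Timp1 was 23.3-fold higher in Tg than in WT muscle, with 10.78 and 11.08 in Tg against 6.55 and 6.23 in WT muscle, a difference of 4.54 ± 0.48 (SE, limma adjusted p = 0.000904). Over all genes, 2.12% were called higher and 1.03% lower. The Timp1 call held whichever array was left out, at 4.38 to 4.70, and the 4 arrays of the 2 groups did not overlap. The median change of the 9 genes was 0.93, beside -0.05 over all genes.

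Mmp2 had 11.74 and 11.25 in Tg against 10.64 and 10.49 in WT muscle, a difference of 0.93 ± 0.22 just outside the threshold (limma adjusted p = 0.055). A second Mmp2 probe set gave 1.07 and was called (limma adjusted p = 0.022, adjusted over all 34958 probe sets with 1 symbol). Mmp14 had 8.77 and 8.03 in Tg against 7.67 and 6.66 in WT muscle, and its difference of 1.24 ± 0.33 was not called (limma adjusted p = 0.0876). The Tg arrays of both genes lay above the WT arrays. Adam8 had 6.98 and 6.82 in Tg against 5.84 and 5.92 in WT muscle, 1.02 ± 0.58 higher, Adam12 had 7.88 and 6.60 against 6.45 and 6.28, 0.87 ± 0.50 higher, and Mmp3 had 7.28 and 6.95 against 6.57 and 6.61, 0.52 ± 0.34 higher (limma adjusted p = 0.484, 0.495 and 0.561). Counted by arrays, 6 of the 9 genes were higher in both Tg arrays than in both WT arrays and 0 were lower, where 20.5% of all genes were higher and 27.1% lower.

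Mmp9 set the 2 Tg arrays apart, at 8.59 on the first and 5.58 on the second, against 6.32 and 5.64 in WT muscle. On the first Tg array the summed intensity of 9 neutrophil markers was 11300, beside 1140 on the second Tg array and 279 and 448 in WT muscle, with 3 of 9 markers below the array median on the first and 6 to 8 on the other muscle arrays. The Mmp9 difference was 1.10 ± 0.95 with both Tg arrays (SE, limma adjusted p = 0.681) and -0.40 without the first. Timp2 had 11.46 and 11.85 in Tg against 11.40 and 11.85 in WT muscle, and Timp3 had 11.49 and 11.26 in Tg against 11.63 and 11.35 in WT muscle. Their differences were 0.03, or -0.02 with arrays shifted to one median, and -0.11 (limma adjusted p = 0.977 and 0.924 as first fitted). The macrophage markers summed to 10600 and 7830 in Tg against 5980 and 5700 in WT muscle, with 0 of 9 called. Of 7 new fibre markers, 6 were called higher and 1 lower. Of 6 myoblast and satellite cell markers, 2 were called higher, Myf5 by 1.1 and Itga7 by 1.05 (limma adjusted p = 0.0243 and 0.0397). The part of these cells in the Timp1 level was not tested.

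**Figure D2:**
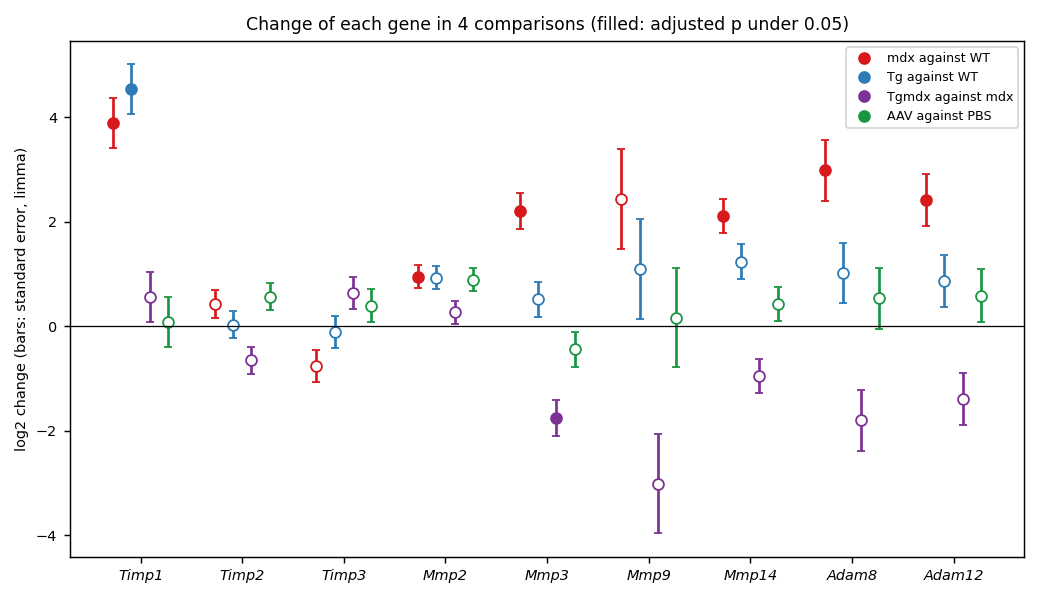
Log2 change of each gene in mdx against WT, Tg against WT, Tgmdx against mdx and AAV against PBS muscle, with bars for the limma standard error and filled points for an adjusted p under 0.05. Timp1 is filled in mdx against WT and in Tg against WT, and Mmp3 is filled above 0 in mdx against WT and below 0 in Tgmdx against mdx.

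In muscle labelled Tgmdx, whose Dmd level lay above that of mdx muscle, Mmp3 was lower than in mdx muscle and no other member was called. Mmp3 had 7.25 and 6.85 in Tgmdx against 9.04 and 8.56 in mdx muscle, so that it fell by 1.75 ± 0.34, or 3.36-fold (SE, limma adjusted p = 0.0182). It was the 1 of 9 genes called, where 3.97% of all genes were called higher and 2.11% lower. The median change of the 9 genes was -0.95, beside -0.01 over all genes. This comparison shares the mdx arrays with mdx against WT, so a high mdx value enters both with opposite sign. The Mmp3 call held without the second mdx array at -1.99 (limma adjusted p = 0.0408), but not without the first mdx array at -1.51 (0.0606) or the second Tgmdx array at -1.55 (0.116).

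Both ADAMs had lower levels in Tgmdx muscle without passing the threshold. Adam8 had 7.07 and 7.07 in Tgmdx against 9.20 and 8.55 in mdx muscle, a difference of -1.80 ± 0.58 (SE, limma adjusted p = 0.0971). Adam12 had 7.07 and 7.71 in Tgmdx against 9.06 and 8.50 in mdx muscle, -1.39 ± 0.50 (limma adjusted p = 0.139). In both, the Tgmdx and mdx arrays did not overlap. A second Adam12 probe set gave -2.43 ± 0.43 and was called (limma adjusted p = 0.0151 over all probe sets).

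Mmp9 had 5.11 and 5.71 in Tgmdx against 9.52 and 7.32 in mdx muscle. Its difference of -3.01 ± 0.95 was the largest in size among the 9 genes in this comparison and was not called (limma adjusted p = 0.0923), and it was -4.11 without the second mdx array and -1.92 without the first. Mmp14 had 8.23 and 8.42 in Tgmdx against 9.18 and 9.36 in mdx muscle, -0.95 ± 0.33 (limma adjusted p = 0.128), and 1 of its other probe sets gave -1.74 and was called (limma adjusted p = 0.0455 over all probe sets). The 2 groups did not overlap in either gene. In a fit to the first set alone Adam8 was called as well, at -1.80 (limma adjusted p = 0.0136), and with the mean over a gene's probe sets Mmp14 at -1.36 and Adam12 at -1.91 were (0.0129 and 0.0322). Leaving out a Tg array, which does not enter this comparison, kept Mmp9 at -3.01 but changed its call. Leaving out a PBS array likewise kept Adam8 at -1.80 and changed its call. Mmp2 had 11.59 and 11.98 in Tgmdx against 11.44 and 11.58 in mdx muscle, 0.27 ± 0.22 (limma adjusted p = 0.569). Without the second mdx array Adam8 was at -2.13, Adam12 at -1.67, Mmp14 at -0.86 and Mmp2 at 0.34, none of them called (limma adjusted p = 0.148, 0.187, 0.316 and 0.577).

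Timp1 had 11.14 and 10.58 in Tgmdx against 10.38 and 10.20 in mdx muscle, 0.57 ± 0.48 (SE, limma adjusted p = 0.579). Timp2 had 11.46 and 11.35 in Tgmdx against 12.18 and 11.93 in mdx muscle, -0.65 ± 0.26 (limma adjusted p = 0.18). Timp3 had 11.70 and 11.03 in Tgmdx against 11.19 and 10.26 in mdx muscle, 0.64 ± 0.31 (limma adjusted p = 0.282). No inhibitor passed the threshold here, and the Timp3 arrays overlapped. Without the second mdx array Timp1 was at 0.48, Timp2 at -0.77 and Timp3 at 0.17 (limma adjusted p = 0.76, 0.229 and 0.833). By arrays, 6 of the 9 genes were lower and 2 higher in both Tgmdx arrays than in both mdx arrays, where 22.3% of all genes were lower and 21.8% higher.

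The 9 macrophage markers summed to 10600 and 11500 in Tgmdx against 22300 and 18000 in mdx muscle, and 2 of 9 were called lower: Adgre1 at -1.13 ± 0.28 and Lyz2 at -1.04 ± 0.25 (SE, limma adjusted p = 0.04 and 0.041). The neutrophil markers summed to 702 and 884 in Tgmdx against 1420 and 874 in mdx muscle, with 0 of 9 called. Of 7 endothelial markers, 2 were called lower, Esam at -1.24 ± 0.22 and Tie1 at -1.20 ± 0.31 (limma adjusted p = 0.0119 and 0.0474). Without the second mdx array 1 macrophage marker, Lyz2, and 3 endothelial markers were called lower. With all arrays, 1 of 7 new fibre markers was called lower, Actc1 at -2.23, and 1 of 8 adult fibre markers, Ckm at -0.96. Of 6 myoblast and satellite cell markers 1 was called higher, Myf5 at 1.13 (limma adjusted p = 0.00151, 0.0279 and 0.0188). Without the second mdx array these 3 genes were at -2.26, -0.84 and 0.81. The part of these cells in the Mmp3 difference was not tested.

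**Figure D3:**
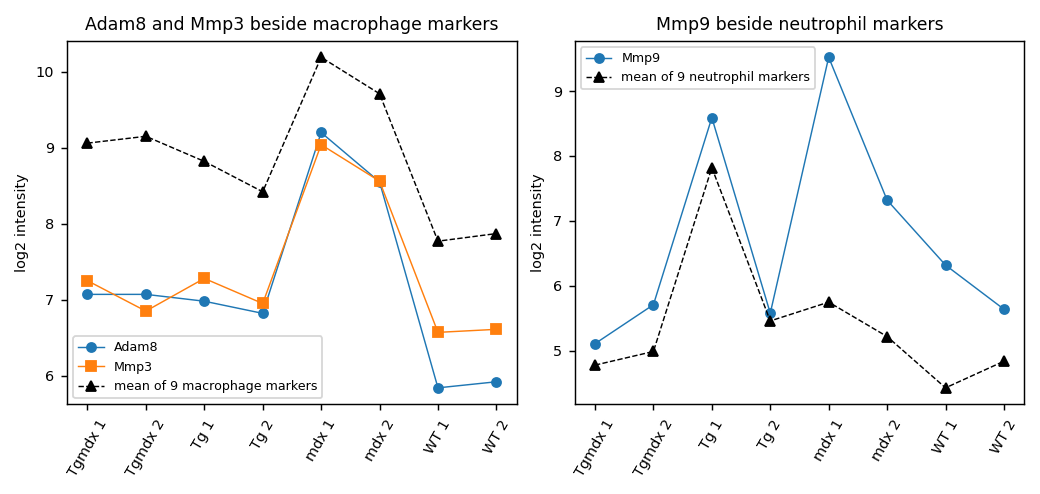
Log2 intensity on each of the 8 arrays of the first set of Adam8 and Mmp3 beside the mean of 9 macrophage markers (left) and of Mmp9 beside the mean of 9 neutrophil markers (right); lines only join the points of a gene or list. Adam8, Mmp3 and the macrophage markers are highest on the 2 mdx arrays. The neutrophil markers are highest on the first Tg array at 7.82, where Mmp9 is at 8.59. Mmp9 is highest on the first mdx array at 9.52, where the neutrophil markers are at 5.75.

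Against the transgenic muscle without the mdx mutation, Tgmdx muscle showed no called change in the 9 genes, where 0.0495% of all genes were called higher and 0.0055% lower. The limma adjusted p was 1 for every member, and 0 of 9 had an unadjusted p under 0.05. Timp1, at 11.14 and 10.58 in Tgmdx against 10.78 and 11.08 in Tg muscle, differed by -0.07 with a 95% interval of -1.13 to 0.99. By arrays, 1 of the 9 genes was higher in both Tgmdx arrays and 0 lower, where 20.4% of all genes were higher and 9.48% lower. The widest gap was in Mmp9, at -1.68 ± 0.95 (SE), where the first Tg array was high.

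Against wild-type muscle, Timp1 and Mmp2 were higher in Tgmdx muscle. Timp1 was 22.2-fold higher, at 4.47 ± 0.48 (SE, limma adjusted p = 0.000459), and held whichever array was left out (4.19 to 4.75). Mmp2 had 11.59 and 11.98 in Tgmdx against 10.64 and 10.49 in WT muscle, a 2.33-fold difference of 1.22 ± 0.22 (limma adjusted p = 0.00944), and its call was lost without the second WT or the second Tgmdx array. These were 2 of 9 genes called higher, where 4.91% of all genes were called higher and 2.36% lower. Mmp14 at 1.16 ± 0.33, Adam8 at 1.19 ± 0.58, Adam12 at 1.03 ± 0.50, Mmp3 at 0.46 ± 0.34 and Mmp9 at -0.57 ± 0.95 were not called (limma adjusted p = 0.0645, 0.274, 0.279, 0.503 and 0.801). Timp2 at -0.22 and Timp3 at -0.12 were not called either (limma adjusted p = 0.708 and 0.879). Adam8 was called in a fit to the first set alone (limma adjusted p = 0.0388) and without either PBS array (0.0209), and Mmp14 without the first WT array, at 1.66 (0.029). By arrays, 6 of the 9 genes were higher in both Tgmdx than in both WT arrays and 0 lower, where 27.8% of all genes were higher and 24.2% lower. In Tgmdx against WT muscle 4 of 9 macrophage markers and 6 of 7 new fibre markers were called higher, with 1 of the 7 lower. Of 6 myoblast and satellite cell markers 3 were called higher, of 7 endothelial markers 2 were called lower, Tek at -1.02 and Esam at -1.0, and of 8 adult fibre markers 1, Ckm, was called lower at -1.03 ± 0.21 (SE, limma adjusted p = 0.0167). The part of these cells in the Timp1 and Mmp2 differences was not tested.

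Ordered by group mean, Timp1 stood highest in Tg, then Tgmdx, mdx and WT muscle; the Tgmdx and Tg arrays overlapped, the mdx arrays lay just below them and the WT arrays far below. On the probe sets used, Mmp3, Mmp14, Adam8 and Adam12 stood highest in mdx and lowest in WT muscle. Tgmdx and Tg stood next to each other there and overlapped in Mmp3, Mmp14 and Adam12. The other 2 Mmp14 probe sets had their lowest mean in Tgmdx, at -0.17 and -0.10 against WT muscle, with overlapping arrays. The dimmer of them lay below the array median on 11 of the 12 muscle arrays. The second Adam12 probe set had 5.32 and 5.27 in Tgmdx, below 6.80 and 5.92 in Tg and beside 5.41 and 5.06 in WT muscle. Mmp2 was lowest in WT muscle, and its Tg arrays overlapped with those of Tgmdx and of mdx. Mmp9 ran from a mean of 5.41 in Tgmdx to 7.08 in Tg, 8.42 in mdx and 5.98 in WT muscle, and lay above the array median on 4 of the 8 arrays. Timp2 was highest and Timp3 lowest in mdx muscle, and the Tgmdx, Tg and WT arrays of Timp3 overlapped. Over the 8 arrays the range was 4.91 for Timp1, 4.42 for Mmp9, 3.37 for Adam8 and 0.83 for Timp2.

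Whether the transgene went with a different change in mdx muscle than in normal muscle was tested as an interaction, and 0 of the 9 genes were called, where 0.022% of all genes were called in each direction. By limma, 6 of the 9 had an unadjusted p under 0.05, as had 2168 of 18194 genes. Timp1 had an interaction of -3.97 ± 0.68 (SE, limma adjusted p = 0.0983): the transgene went with 4.54 in normal muscle and 0.57 in mdx muscle. The interaction was -2.27 ± 0.49 for Mmp3, -2.19 ± 0.47 for Mmp14, -2.82 ± 0.82 for Adam8 and -2.26 ± 0.71 for Adam12 (limma adjusted p = 0.114, 0.114, 0.213 and 0.24). Mmp9 had the largest in size of the 9, at -4.12 ± 1.34 (limma adjusted p = 0.253). Timp2 at -0.68, Timp3 at 0.75 and Mmp2 at -0.66 had limma adjusted p of 0.518, 0.561 and 0.452. Without the second mdx array none was called: Timp1 was at -4.06, Mmp3 at -2.51, Mmp14 at -2.10, Adam8 at -3.15, Adam12 at -2.54, Mmp9 at -5.22, Timp2 at -0.80, Timp3 at 0.29 and Mmp2 at -0.59 (limma adjusted p from 0.12 for Timp1 to 0.78 for Timp3). In a fit to the first set alone the Timp1 interaction was called (limma adjusted p = 0.0452). Leaving out a PBS array kept the interaction values as they were. It did change the calls of Timp1, Mmp3 and Adam8, and it can change those of all genes. The reason is that the spread of each gene is estimated over all 12 arrays.

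Delivery of Galgt2 by virus into mdx muscle gave no called change in any of the 9 genes, and 0% of all genes were called by limma. The delivered gene B4galnt2, 55-fold higher at 5.78, was not called either (limma adjusted p = 0.233). The lack of calls therefore does not show that the 9 genes were unchanged. By limma, 1506 of 18194 genes and 1 of the 9 members had an unadjusted p under 0.05. That member was Mmp2, with 10.24 and 10.18 in AAV against 9.25 and 9.40 in PBS muscle, a difference of 0.89 ± 0.22 (SE, 95% interval 0.39 to 1.39, limma adjusted p = 0.361). Its second probe set gave 1.06 (limma adjusted p = 0.367). Both AAV arrays of Mmp2 lay above both PBS arrays, as they did for Timp2 with 10.45 and 10.81 in AAV against 9.81 and 10.32 in PBS muscle, for Timp3 with 10.79 and 10.91 against 10.44 and 10.47, and for Mmp14 with 6.27 and 6.55 against 5.90 and 6.05. These 4 of 9 genes stand beside 25.3% of all genes that were higher in both AAV arrays, and no member was lower in both, where 18.6% of all genes were. The muscles are contralateral, but which AAV and PBS arrays share a mouse is not given in the sources used here, so the fit takes the 4 arrays as separate. The differences were 0.57 ± 0.26 for Timp2, 0.40 ± 0.31 for Timp3 and 0.43 ± 0.33 for Mmp14 (limma adjusted p = 0.609, 0.798 and 0.794).

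**Figure D4:**
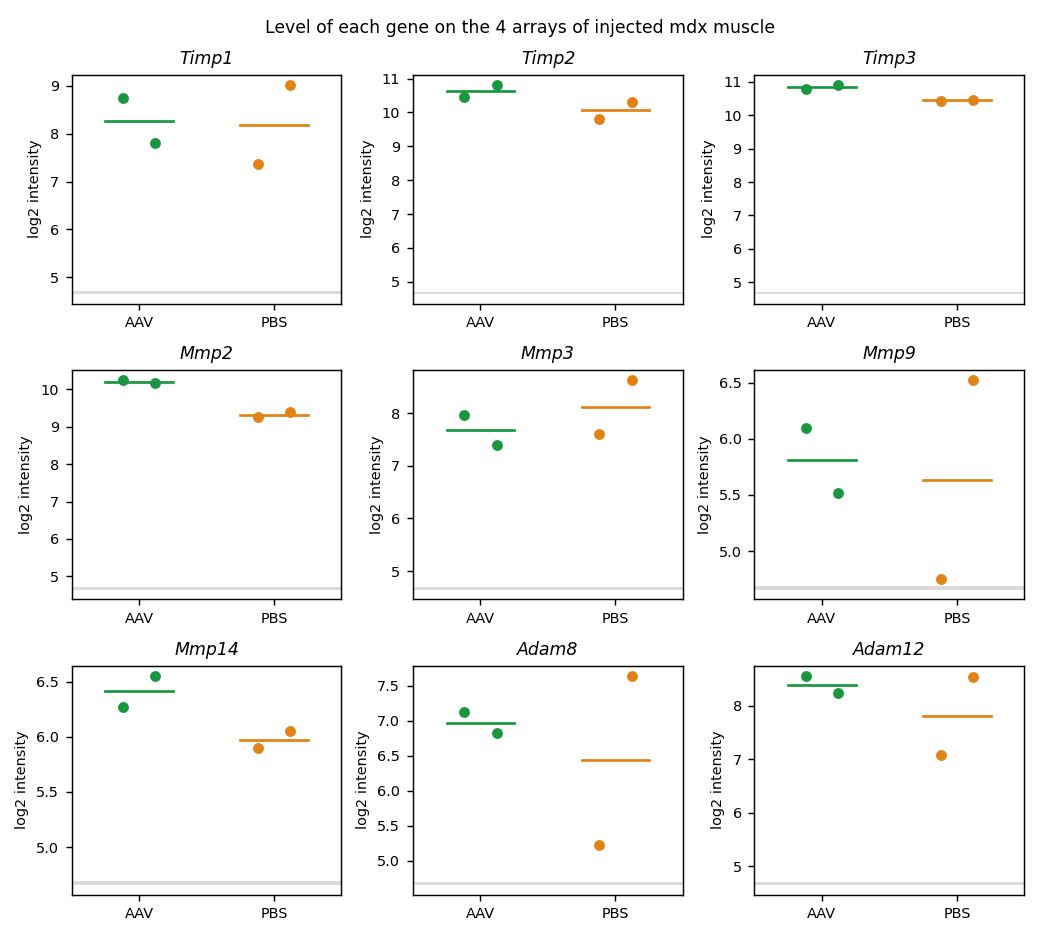
Log2 intensity of each gene on the 4 mdx gastrocnemius arrays of the second set, one point per array with 2 arrays per group, AAV left of PBS; the line marks each group's mean and the grey band the range of array medians. The 2 PBS arrays lie 2.41 apart for Adam8, and in 5 of the 9 genes the AAV and PBS arrays overlap.

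The other 5 genes overlapped between AAV and PBS muscle, and their 2 PBS arrays lay apart. Adam8 had 7.12 and 6.82 in AAV against 5.23 and 7.64 in PBS muscle, Timp1 had 8.74 and 7.81 against 7.36 and 9.02, and Adam12 had 8.56 and 8.24 against 7.08 and 8.55. Mmp9 had 6.10 and 5.52 in AAV against 4.75 and 6.52 in PBS muscle, and Mmp3 had 7.97 and 7.39 against 7.61 and 8.62. The second PBS array was the highest of the 4 in 4 of these genes, and in Adam12 it was next to the highest. On that array the 9 macrophage markers summed to 11200, beside 7580 on the other PBS array and 9620 and 7980 in AAV muscle, and the 9 neutrophil markers to 2620, beside 284 on the other PBS array and 607 and 267 in AAV muscle. The part of these cells was not tested. Without the second PBS array Adam8 was 1.74 higher in AAV muscle and was called (limma adjusted p = 0.0396), and without the first it was -0.67.

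Probe sets of the same gene differed in several members. Timp2 has 6. In mdx against WT muscle 1 of them gave 1.24 ± 0.31 (SE, limma adjusted p = 0.0566 over all probe sets), while the one used gave 0.43. In Tgmdx against mdx muscle 4 others gave -1.15 to -1.57, the fifth gave -0.07 and the one used gave -0.65, none of them called. The second Tgmdx array, with the high 3' to 5' Gapdh ratio, read 10.3 on 1 of these probe sets where the first read 11.2. All 4 Timp3 probe sets were below 0 in mdx against WT muscle, at -0.38 to -0.76, and none was called. In Tgmdx against mdx muscle the other 3 gave -0.30 to 0.20, beside 0.64 for the one used. The other 2 Mmp14 probe sets gave -0.17 and -0.10 in Tgmdx against WT muscle, beside 1.16 for the one used. On 1 of them the level was 6.50 and 6.03 in Tgmdx, 6.96 and 7.63 in Tg, 8.67 and 7.34 in mdx and 6.17 and 6.71 in WT muscle, so the Tgmdx arrays lay below the Tg arrays. The second Adam12 probe set gave 2.49 in mdx against WT muscle and was called (limma adjusted p = 0.0147), beside 2.42 for the one used. In Tgmdx against WT muscle it gave 0.07, beside 1.03 for the one used. In Tgmdx against Tg muscle it gave -1.06, beside 0.15 for the one used. The second Mmp9 probe set gave 1.19 in mdx against WT and -1.65 in Tgmdx against mdx muscle, closer to 0 than the one used in both.

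Relatives of these genes were described from lists that had been assembled with earlier results known. Of 12 other MMPs measured, 3 were called higher and 0 lower in mdx against WT muscle, with a median of 0.94 beside 0.01 over all genes: Mmp12, the elastase of macrophages, by 6.59 ± 1.27, Mmp19 by 2.54 ± 0.58 and Mmp11 by 1.70 ± 0.24 (SE, limma adjusted p = 0.0168, 0.0314 and 0.00491). Mmp12 had 3.86 and 4.36 in Tgmdx, 7.64 and 4.86 in Tg, 11.79 and 8.44 in mdx and 3.52 and 3.53 in WT muscle. It was the 1 of 12 called in Tgmdx against mdx muscle, where it fell by 6.00 ± 1.27 (limma adjusted p = 0.0242). Mmp11 was the 1 of 12 called in Tg against WT muscle, at 1.01 ± 0.24 (limma adjusted p = 0.0474). In Tgmdx against WT muscle 2 were called higher, Mmp11 by 1.54 and Mmp16 by 1.47 (limma adjusted p = 0.00353 and 0.0208).

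The 7 other ADAMs with a zinc-binding site had no call in any comparison, with a median of -0.10 in mdx against WT muscle. Of 15 ADAMTS proteases, Adamts4 rose by 1.95 ± 0.39 in mdx against WT muscle (SE, limma adjusted p = 0.0204) and Adamts15 fell by 1.13 ± 0.28 in Tgmdx against mdx muscle (limma adjusted p = 0.0408). A further 7 genes were listed as other metalloprotease inhibitors, and the listing does not show that the proteoglycan Spock2 acts as one. Spock2 had 9.09 and 9.80 in Tgmdx, 9.09 and 9.54 in Tg, 6.93 and 7.28 in mdx and 6.93 and 7.12 in WT muscle. Both groups with the transgene lay above both without it: Spock2 rose by 2.29 ± 0.34 in Tg against WT and by 2.34 in Tgmdx against mdx muscle (limma adjusted p = 0.00532 and 0.00499). Spock3, of the same family, rose by 1.85 ± 0.35 in Tgmdx against mdx muscle (limma adjusted p = 0.015). In AAV against PBS muscle Spock2 was at 1.56 ± 0.34, which was not called (limma adjusted p = 0.357). Tfpi2, a serine protease inhibitor of the matrix, rose by 1.74 in mdx against WT, by 1.93 in Tg against WT and by 2.52 in Tgmdx against WT muscle.

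Of 10 genes of plasminogen activation, the system that activates several MMP precursors, 2 were called higher in mdx against WT muscle, Anxa2 by 1.27 ± 0.31 and Plat by 1.05 ± 0.24 (SE, limma adjusted p = 0.0437 and 0.0316). With all arrays 0 were called in the other comparisons. Plaur was at -1.55 ± 0.42 in Tgmdx against mdx muscle (limma adjusted p = 0.0585). It was larger in size, at -2.24, without the second mdx array, and was called there. Of 14 lysosomal cathepsins and their inhibitors, 5 were called higher in mdx against WT muscle, with a median of 1.00, led by Ctss at 2.38, Ctsh at 1.86 and Ctsz at 1.82. In Tgmdx against mdx muscle 1 was called lower, Ctsh at -1.27 ± 0.28 (limma adjusted p = 0.0266).

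These relatives were also refitted without the second mdx array, an alternative chosen after seeing the data. In mdx against WT muscle Mmp12 at 8.27, Mmp11 at 1.62, Adamts4 at 2.27, Ctss at 2.50 and Ctsh at 1.99 were still called, while Mmp19 at 2.87, Tfpi2 at 1.58, Anxa2 at 1.44, Plat at 1.20 and Ctsz at 1.89 were not (limma adjusted p = 0.0705, 0.0946, 0.0865, 0.0619 and 0.0706). In Tgmdx against mdx muscle Mmp12 at -7.68 and Spock2 at 2.52 were still called, and Spock3 at 1.94, Adamts15 at -1.0 and Ctsh at -1.39 were not (limma adjusted p = 0.0523, 0.153 and 0.0618).

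For the 6 members whose level ranged over more than 2 in the first set, the genes of most similar profile were found by the root mean square distance between log2 levels over the 8 arrays, each gene centred on its mean. Nearest to Timp1 were Tnnt2, the troponin T of embryonic and regenerating muscle, at 0.344, E2f8 at 0.555 and Krt18 at 0.625. Tnnt2 had 11.20 and 11.30 in Tgmdx, 10.95 and 10.55 in Tg, 10.10 and 10.14 in mdx and 6.36 and 6.25 in WT muscle. Nearest to Adam8 were the myeloid adaptor Tyrobp at 0.149, Cd300c2 at 0.166 and the leukocyte actin regulator Coro1a at 0.18. Mmp3 had Sema4d at 0.152, Pstpip1 at 0.169 and Ifi30 at 0.184. Mmp14 had Sh3bgrl3 at 0.173, Pclaf at 0.191 and S1pr2 at 0.24, and Adam12 had Tnfrsf13b at 0.194, the cell-cycle kinase Cdk1 at 0.196 and Ncf1 at 0.244. Mmp9 had no close neighbour, with Clec4e at 0.765, Acp5 at 0.846 and Ighg3 at 0.848. The 8 arrays share groups, so such distances describe the pattern and carry no test.

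The cell line arrays show the 9 genes in muscle cells grown without the other cells of a muscle, and with 1 array per condition their differences have no replicate check. B4galnt2 was at 10.82 and 9.76 on the C2CT myotube and myoblast arrays, against 4.81 and 4.58 on those of C2C12. The C2C12 pair went against its labels: on the array labelled C2C12 myotube 7 of 8 adult fibre markers were at least 2-fold lower than on the array labelled C2C12 myoblast, with a median difference of -1.81, while 6 of 8 were at least 2-fold higher on the array labelled C2CT myotube than on that labelled C2CT myoblast, with a median of 1.69. Directions between myotube and myoblast arrays are given by label for this reason. The 9 macrophage markers summed to 340 to 432 on these arrays, and 7 or 8 of the 9 lay below the array median.

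Mmp9 lay below the array median on all 4 cell line arrays, at 5.47 and 4.88 on the arrays labelled C2CT myotube and myoblast and 5.09 and 5.01 on those labelled C2C12 myotube and myoblast. Mmp3 had 6.36 and 4.89 on the C2CT pair and 6.90 and 4.97 on the C2C12 pair, in the same order. It was 2.76-fold higher on the array labelled myotube in C2CT and 3.82-fold in C2C12, where 3.35% and 4.09% of all genes were at least 2-fold higher, and 2.24% and 4.27% at least 2-fold lower. The other 7 genes were above the array median on every cell line array.

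Adam12 had 10.45 and 10.96 on the arrays labelled C2CT myotube and myoblast, and 9.66 and 10.93 on those labelled C2C12 myotube and myoblast, a difference of -1.27 in the C2C12 pair. Timp1 had 10.40 and 11.41 on the C2CT pair and 11.79 and 11.19 on the C2C12 pair, so the array labelled C2CT myotube differed by -1.02 from that labelled C2CT myoblast and by -1.39 from that labelled C2C12 myotube. Timp3 had 11.95 and 10.76 on the C2CT pair and 11.85 and 12.35 on the C2C12 pair. It differed by 1.19 between the C2CT arrays and by -1.60 between the C2CT and C2C12 arrays labelled myoblast. No other difference reached 2-fold in these 4 pairings. Between the lines, 2.68% of all genes were at least 2-fold higher and 3.56% lower on the C2CT than on the C2C12 array labelled myoblast, and 4.51% higher and 4.75% lower on those labelled myotube. Timp2 ran from 12.56 to 12.80, Mmp2 from 11.46 to 12.11, Mmp14 from 8.92 to 9.53 and Adam8 from 6.08 to 7.26.

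**Figure D5:**
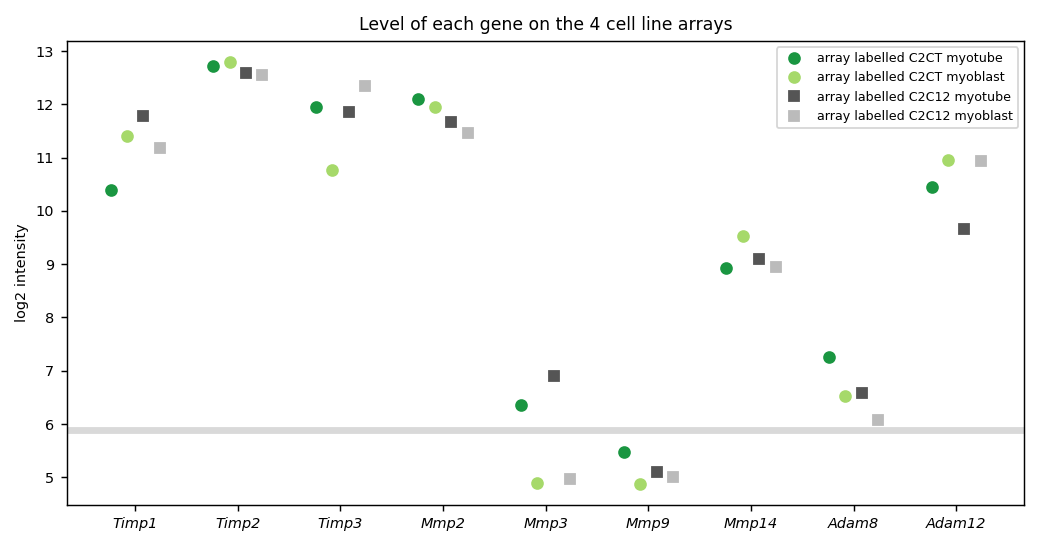
Log2 intensity of each gene on the 4 cell line arrays, one point per array as labelled, with the grey band for the range of array medians. Mmp9 lies below the band on all 4 arrays, and Mmp3 lies above it only on the 2 arrays labelled myotube.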

How the data were processed

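Gene expression was measured on 16 arrays in 3 sets, of which 12 hold gastrocnemius muscle and 4 hold cell lines. The authors deposited 1 intensity per probe set and array, made with GCOS and RMA per the submitters' processing notes, with no versions and no word on whether the sets were processed together. The deposited intensity values run from 3.9 to 24269.1, so their scale was taken as linear with no centring, and log2 of the deposited values was analysed. Arrays have no read depth; their number limits the precision.

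Of 45101 probe sets, 34958 carry 1 gene symbol in the supplied annotation, 932 several and 9211 none; the last 2 kinds were left out. A gene's values are those of its brightest probe set by the mean over the muscle arrays, and for the cell lines over the cell line arrays. The 12 muscle arrays were fitted with 6 group means in limma 3.58.1 (R 4.3.3), with 7 comparisons, eBayes and two-sided Benjamini-Hochberg adjusted p-values over 18194 genes. The fit was tested on simulated data. Single cell line arrays were compared by a 2-fold rule with no test.

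The members and gene lists were chosen with earlier results of these data known. Named were all 9 members, B4galnt2 and Dmd, in each other list up to 4 called genes of largest change per comparison or up to 2 of smallest p, and for each member ranging over more than 2 the 3 genes of nearest profile. Same-numbered arrays did not deviate together in a consistent way: their deviations correlated at 0.542 between WT and Tg but at -0.439 between WT and mdx. The numbers were therefore not used as pairs. AAV and PBS muscles are contralateral, but which arrays share a mouse is not given, and the fit ignores it. Alternatives tried were the fit within an array set, a replicate block, arrays shifted to one median, the mean over probe sets, each probe set on its own, genes above the median level only, and leaving out each array; the other gene lists were refitted without the second mdx array, chosen after seeing the data.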

Additional observations from a re-analysis of the deposited data

Results flagged for a closer look

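In 2 genes, on the probe sets used, both Tgmdx arrays lay below both mdx arrays while both AAV arrays lay above both PBS arrays. Over all genes, 22.3% were lower in both Tgmdx arrays and 25.3% higher in both AAV arrays. The share of all genes that did both was not counted. Timp2 was at 0.57 in AAV against PBS and at -0.65 in Tgmdx against mdx muscle. Mmp14 was at 0.43 in AAV against PBS and at -0.95 in Tgmdx against mdx muscle. None of the 4 differences was called in limma, and the difference between the comparisons was not tested, since they lie in different array sets. On 1 of the other Timp2 probe sets the arrays overlapped in both comparisons, at 0.26 in AAV against PBS and -0.07 in Tgmdx against mdx muscle.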

How the results depend on the processing

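Timp1 in mdx, Tg and Tgmdx against WT muscle was called under all 18 alternatives. With the fit restricted to an array set, 2 members were called in Tgmdx against mdx muscle, where 643 genes were. Timp1 was called in the interaction at -3.97 (limma adjusted p = 0.0452). Genes called were 365 in Tg against WT, 3 in Tgmdx against Tg and 842 in Tgmdx against WT. With the mean over probe sets, 3 members were called in Tgmdx against mdx, where 6.39% of all genes were, and 2 in Tg against WT muscle, where 3.47% were; 5 genes had an interaction, and Adam12 in Tgmdx against Tg was -0.45. With genes above the median level only, fewer genes enter the adjustment, and Mmp2 in Tg against WT was called at 0.93 (limma adjusted p = 0.0493). Genes called were then 0 in Tgmdx against Tg and 3 for the interaction. With each probe set on its own, they were 5 and 3. With arrays shifted to one median, 15 genes had an interaction and Timp2 in Tg against WT was -0.02. Same-numbered arrays correlated at -0.439 to 0.542 in the first set and at -0.0467 between AAV and PBS, so the numbers were not taken as pairs; the replicate block gave 582 genes called in mdx against WT, 677 in Tgmdx against mdx, 3 in Tgmdx against Tg and 0 for the interaction, and 5 members in mdx against WT.

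Leaving out 1 array gave 1 to 6 members called in mdx against WT, 1 to 2 in Tg against WT, 0 to 2 in Tgmdx against mdx, 1 to 3 in Tgmdx against WT, 0 to 3 for the interaction, 0 to 1 in AAV against PBS and 0 in Tgmdx against Tg; a lone array is then assumed to vary like the other groups. Genes called were 132 to 1338, 184 to 653, 311 to 1290, 434 to 1575, 0 to 142, 0 to 158 and 4 to 22 in the same order. Differences that changed sign, none called on either side except Adam8 in AAV against PBS, ran in Tg against WT from -0.19 to 0.25 for Timp2, -0.25 to 0.03 for Timp3 and -0.40 to 2.60 for Mmp9. In Tgmdx against WT they ran from -0.44 to 0 for Timp2 and -0.46 to 0.21 for Timp3. In Tgmdx against Tg they ran from -0.35 to 0.21 for Timp1, -0.34 to 0.32 for Timp3, -0.26 to 0.14 for Mmp3, -0.45 to 0.29 for Mmp14 and -0.49 to 0.80 for Adam12. In AAV against PBS they ran from -0.74 to 0.92 for Timp1, -0.94 to 0.07 for Mmp3, -0.71 to 1.05 for Mmp9, -0.67 to 1.74 for Adam8 and -0.15 to 1.32 for Adam12. The cause of these changes was not tested.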
